A study of Mus musculus with 2 samples.

Results

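The cathepsin proteases described here are 10 genes, Ctsa, Ctsb, Ctsc, Ctsd, Ctsh, Ctsk, Ctsl, Ctss, Ctsw and Ctsz. They were taken by symbol from the 24346 gene symbols listed for both libraries, and all 10 were found in both. By the chemistry of their active site, 8 are cysteine proteases, Ctsd is an aspartic protease and Ctsa is a serine carboxypeptidase. Bulk RNA-seq was made of GFP+CD4+ Tregs from Foxp3-DTR-GFP mice (FDG mice) on day 15 after 50 μg of intratracheal bleomycin (BLM), an agent that injures the lung and leads to fibrosis. One group is Tregs of the spleen and the other Tregs of the lung, and each is 1 library of the pooled cells of 3 mice. The mice were 10 to 16 weeks old and matched for age and sex, with the sex not stated. Every mouse carried the Foxp3-DTR-GFP allele and received BLM, so that no untreated or GFP-negative group was part of the comparison. GFP and the diphtheria toxin receptor are expressed under the control of Foxp3 and mark any cell in which that locus is active. Lungs were digested with Liberase and DNase and passed over Percoll, whereas spleens were prepared by another protocol, so tissue and preparation cannot be told apart.

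Cathepsins are made as inactive precursors, are carried to endosomes and lysosomes mainly through mannose 6-phosphate receptors, and become active as these compartments acidify. They degrade proteins taken up from outside or delivered by autophagy, and some have narrower tasks, such as trimming the invariant chain of MHC class II molecules or activating granule proteases. They are abundant in macrophages and other phagocytes, and in T cells several of them act in lysosomes or cytotoxic granules.

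The values are FPKM, the fragments of a gene per kilobase of its exons, scaled to the mapped fragments of the library, so levels can be compared between genes. Ratios are lung over spleen, with any FPKM below 0.1 raised to 0.1 first. Low FPKM showed what 1 read was worth, and the reads estimated from them summed to 9647269 in spleen and 12631701 in lung. The ranges given in brackets are 95% intervals of counting error from those reads. They do not cover differences between mice. Whether PCR copies were removed is not stated, and any that were left would count as separate reads. With 1 library per tissue there was no replicate check and no test. The markers of the sorted cells were present in both libraries, with Foxp3 at 18.75 FPKM in spleen and 41.81 in lung, Cd4 at 195.3 and 178.6, and Cd3e at 513.3 and 369.3. None of 10 T cell genes differed more than 2-fold. Of 8 Treg genes, 2 were more than 2-fold higher in lung, Foxp3 and Ctla4 (220.9 and 601 FPKM). More than 2-fold lower was 1, Lrrc32 (69.4 and 30.45), with Il2ra at 89.39 and 59.09 and Izumo1r at 512.2 and 318.1. With both libraries rescaled to the same FPKM sum (TPM), 1 Treg gene was more than 2-fold higher and 3 more than 2-fold lower. Of all symbols that reached 1 FPKM in either library, 13.1% and 25.9% were so on that scale. Markers of other cells were present too, such as the macrophage gene Lyz2 at 376.2 FPKM in spleen and 24947 in lung. Levels are therefore those of each library and may not be those of Tregs alone. These markers are given beside the results that they accompany.

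All 10 cathepsin genes were higher in the lung Treg library than in the splenic one, and all 10 by more than 2-fold. The members were chosen with earlier results of these data known. Of the other cathepsin genes, 3 reached 1 FPKM in either library, and 0 of these differed more than 2-fold. Of the 12094 symbols that reached 1 FPKM in either library, 17.8% were more than 2-fold higher in lung. Of the 1309 symbols that reached 100 FPKM in either library, 17.1% were. All 10 members reached that level in lung but only 4 in spleen, so the others entered this set only through lung. More than 20-fold, the threshold that the study applied to its bulk data, was reached by Ctsk and Ctsl, against 3.27% of the 12094 symbols. No member was more than 2-fold lower in lung, against 15.5% of the symbols. The median log2 ratio of lung to spleen was 2.48 over the members, a 5.59-fold difference, beside 0.031 over the 12094 symbols and 0.38 over the 1309. When both libraries were rescaled to the same FPKM sum (TPM), which moved the median of all symbols to -0.40, 8 of 10 members were more than 2-fold higher, against 13.1% of symbols, and 25.9% of symbols were more than 2-fold lower. Ctsa and Ctsc, each 1.75-fold higher on that scale, were the exceptions. Ctsb, counted among the 8, was at the threshold, with a ratio on that scale that rounds to 2. In bulk RNA, more cells of a type and more RNA per cell cannot be told apart.

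**Figure D1:**
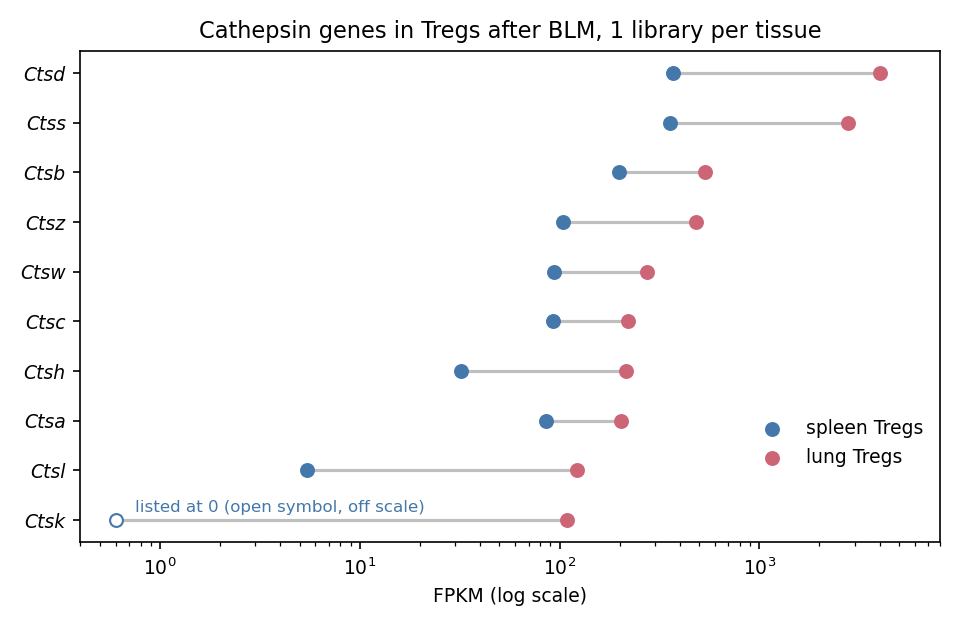
Levels of the 10 cathepsin genes in the splenic (blue) and the lung (red) Treg library, 1 point per library, on a log scale of FPKM and ordered by the lung level. Each lung point lies to the right of its splenic point, and Ctsk, listed at 0 in spleen, is drawn as an open symbol at an arbitrary place.

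Summed over the 10 genes, the level was 1338 FPKM in spleen and 8953 in lung, a 6.69-fold difference. This was 0.223% of all FPKM of the splenic library and 1.11% of those of the lung library. The order of the genes by level was nearly the same in both tissues, with Ctsd first, followed by Ctss, Ctsb, Ctsz, Ctsw and Ctsc, and with Ctsl and Ctsk last. Only Ctsa and Ctsh exchanged places between them. In spleen the counting intervals of Ctsd and Ctss overlapped, as did those of each adjacent pair among Ctsz, Ctsw, Ctsc and Ctsa. In lung the only adjacent pair with overlapping intervals was Ctsc and Ctsh. Overlap alone does not show that an order is unresolved, and the orders were not tested.

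The composition of the sum was more uneven in lung. Ctsd and Ctss together held 54.2% of the cathepsin FPKM in spleen and 75.8% in lung. The other 8 genes summed to 612.2 FPKM in spleen and 2164 in lung, 3.54-fold higher. The share of Ctsd went from 27.6% to 44.8%, whereas that of Ctsb went from 14.8% to 5.99%.

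**Figure D2:**
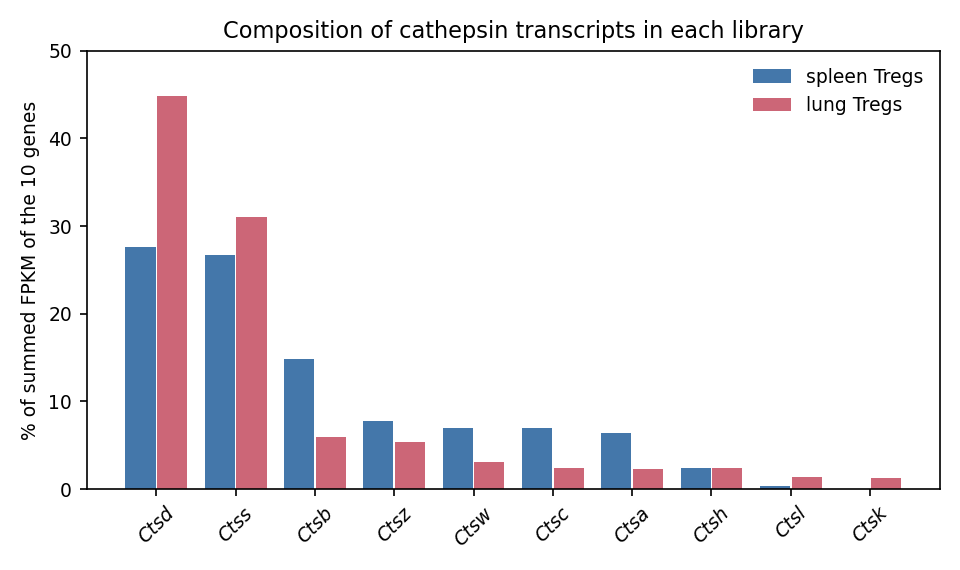
Share of each gene in the summed FPKM of the 10 cathepsin genes, in percent, for the splenic (blue) and lung (red) library. Ctsd and Ctss hold larger shares in lung, at 44.8% and 31%, and Ctsb, Ctsz, Ctsw, Ctsc and Ctsa hold smaller ones than in spleen.

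Ctsd encodes cathepsin D, the main aspartic protease of lysosomes. Its gene is at chr7:142375911-142388038 of GRCm38 (mm10), minus strand. Its level was 368.9 FPKM in the splenic library and 4009 in the lung library, a 10.87-fold difference (10.61 to 11.13). It had the highest level of the 10 in lung, and in spleen its interval overlapped that of Ctss. It ranked 259 among all symbols in spleen and 17 in lung. The lung value rested on about 90537 reads.

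Ctsa encodes cathepsin A, also called protective protein, which trims peptides at their carboxyl end and stabilises beta-galactosidase and neuraminidase in lysosomes. It lies at chr2:164832873-164841032 on the plus strand. Its level was 85.94 FPKM in spleen and 202.5 in lung, 2.357-fold higher (2.252 to 2.467), the lowest ratio of the 10. Ctsa shares 495 bases of exon with Pltp on the opposite strand, and the cDNA kit does not keep the strand, so reads there could be credited to either gene. Pltp, which encodes a phospholipid transfer protein, had 3.682 FPKM in spleen and 54.34 in lung, and its part in the Ctsa ratio was not tested.

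Among the cysteine proteases, Ctss was the most abundant. Cathepsin S is the protease of antigen-presenting cells that removes the last part of the invariant chain from MHC class II, and it stays active near neutral pH. Its gene lies at chr3:95526786-95556403 on the plus strand. Ctss had 356.8 FPKM in spleen and 2779 in lung, 7.789-fold higher (7.545 to 8.042), and was at rank 32 among all symbols of the lung library.

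Ctsk lies 17.42 kb upstream of Ctss, at chr3:95499256-95509362 on the same strand. Cathepsin K is the collagen-degrading protease of osteoclasts and is also made by fibroblasts and some macrophages. It was listed at 0 in spleen and at 109.6 FPKM in lung, on about 1681 reads. The 3 reads that a count of 0 allows would be 0.222 FPKM, against which the lung value was at least 493-fold higher. The 95% interval of counting error, which also covers the error of the lung reads and a higher splenic limit, begins at 400.9. In lung it was nonetheless the lowest of the 10 cathepsins, and Ctss was 25.4 times as high in the same library.

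Ctsl encodes cathepsin L, an endopeptidase of most cell types that also acts on the invariant chain in thymic epithelium. It lies at chr13:64359337-64370890 on the minus strand. Ctsl had 5.417 FPKM in spleen and 122.8 in lung, 22.67-fold higher (18.54 to 27.99). The splenic value rested on about 99 reads, and the interval spans the 20-fold threshold. With TPM the ratio was 16.8, which left Ctsk as the one member past 20-fold.

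Ctsh encodes cathepsin H, an aminopeptidase that takes part in the processing of surfactant protein in alveolar type 2 cells. Its gene lies at chr9:90054152-90076089 on the plus strand. It had 32.25 FPKM in spleen and 216.4 in lung, 6.711-fold higher (6.094 to 7.402). Its share of the cathepsin sum was 2.41% in spleen and 2.42% in lung, and its interval contained the 6.69 of the summed cathepsins.

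Ctsz encodes cathepsin Z, also called cathepsin X, a carboxypeptidase that can bind integrins. It lies at chr2:174427493-174439039 on the minus strand. Its level was 104 FPKM in spleen and 484.5 in lung, 4.657-fold higher (4.392 to 4.943). The ratio was below that of the summed cathepsins and its share went from 7.78% to 5.41%.

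Ctsw encodes cathepsin W, a protease of cytotoxic T cells and NK cells. It lies at chr19:5465043-5468507 on the minus strand. Its level was 93.36 FPKM in spleen and 273 in lung, 2.924-fold higher (2.724 to 3.142). Of 8 genes of NK and cytotoxic T cells, 4 were more than 2-fold higher in lung and 2 more than 2-fold lower. Their sum was 53.55 FPKM in spleen and 179 in lung, with Cd8b1 at 19.88 and 74.77 and Gzmb at 7.506 and 63.09. The defining NK cell receptor gene Ncr1 was at 2.69 FPKM in spleen and at 0 in lung. The part of these cells in the Ctsw ratio was not tested.

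Ctsb encodes cathepsin B, a widely expressed lysosomal endopeptidase and carboxypeptidase, and lies at chr14:63122462-63145923 on the plus strand. It had 198.4 FPKM in spleen and 536.3 in lung, 2.704-fold higher (2.641 to 2.768), and followed Ctsd and Ctss by level in both tissues. Ctsb shares 774 exon bases with Fdft1 on the opposite strand, a gene of sterol synthesis that was at 18.03 and 23.62 FPKM. In GENCODE M21, Ctsl also shares 1742 exon bases with Gm47123 on the opposite strand and 395 with Gm49230 on the same strand, and Ctsd shares 808 with Gm49369 on the same strand. These 3 genes have no value in the files, and their part in the ratios was not tested.

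Ctsc encodes cathepsin C, the dipeptidyl peptidase that activates granzymes and the serine proteases of neutrophils and mast cells. It lies at chr7:88278085-88310888 on the plus strand. Its level was 92.84 FPKM in spleen and 219.3 in lung, 2.362-fold higher (2.256 to 2.473), and its interval overlapped that of Ctsa. Among 8 proteases that cathepsin C activates, 6 reached 1 FPKM in one of the libraries, of which 3 were more than 2-fold higher in lung and 2 more than 2-fold lower. Gzmb was 8.4-fold and Gzmk 6.42-fold higher, the latter at 3.469 and 22.26 FPKM. Gzmc had 2.525 FPKM in spleen and 0.2341 in lung, and the neutrophil elastase gene Elane was at 1.762 in spleen and listed at 0 in lung.

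**Figure D3:**
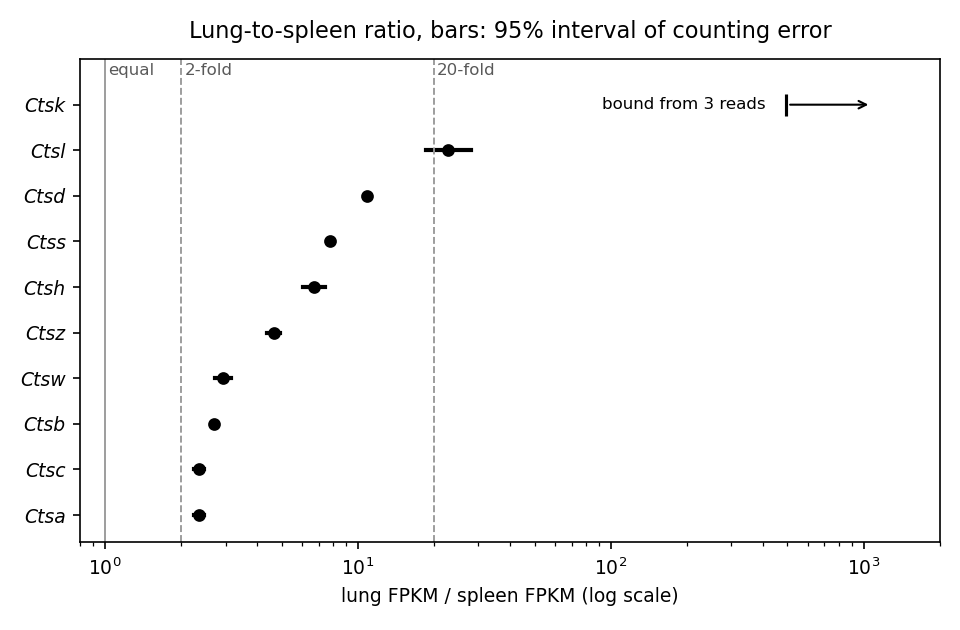
Ratio of lung to splenic FPKM of each cathepsin gene on a log axis, with bars for the 95% interval of counting error, which is narrower than the point for several genes. The genes run from 2.357 for Ctsa to 22.67 for Ctsl, and for Ctsk the arrow starts at 493, the bound set by 3 splenic reads rather than a 95% interval. Dashed lines mark 2-fold and 20-fold.

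Because all members were higher in lung, the promoter windows given by RefSeq (GRCm38.p6), from 250 bases before to 50 after a gene's start, were searched for letters known in lysosomal and myeloid genes. There were 8 windows for 7 members, with Ctsa having 2, and Ctsb, Ctsh and Ctsw have no window in that table. CACGTG, the E-box read by TFEB, TFE3 and MITF and the same on both strands, was in 7.15% of 32851 windows and in those of Ctsa, Ctsd and Ctsl. Its longer form TCACGTGA, which contains the E-box, was in 0.974% of windows and in those of Ctsa and Ctsd. The sites are shown because these 3 members include the highest level and both ends of the measurable ratios, with the E-box in capitals and 30 bases in each.
Ctsd, chr7:142387908-142387937, minus strand: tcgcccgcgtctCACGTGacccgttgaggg
Ctsd, chr7:142388048-142388077, minus strand: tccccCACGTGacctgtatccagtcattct
Ctsa, chr2:164833757-164833786, plus strand: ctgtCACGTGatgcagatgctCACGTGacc
Ctsl, chr13:64370739-64370768, minus strand: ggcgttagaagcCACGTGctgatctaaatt
The sites of Ctsd begin at 98 and 245 bases and that of Ctsl at 236 bases before the RefSeq starts used for these windows. These starts lie inside the gene spans of GENCODE M21 given above, so one site of Ctsd and that of Ctsl are also within those spans. The sites of Ctsa lie around its second RefSeq start. The members with the letters had ratios of 2.357, 10.87 and 22.67. Whether the letters go with the ratios was not tested.

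GAGGAA, letters of the ETS family that PU.1 of myeloid and B cells belongs to, or its reverse TTCCTC, was in 28.3% of all windows and in those of Ctsc, Ctsk and Ctss. The sites of the neighbours Ctsk and Ctss are shown with these letters in capitals, on the plus strand.
Ctsk, chr3:95498965-95498994: gtcagacattttGAGGAAgaatggagacaa
Ctsk, chr3:95499140-95499169: aaatgtgtgtccTTCCTCcctaacccctcc
Ctss, chr3:95526610-95526639: gacacagggttgGAGGAAaactttgtcctg
Ctss, chr3:95526774-95526803: atgaaagttcacTTCCTCattgtggatgct
Both genes hold 1 copy in each orientation. In spleen Ctsk was listed at 0 and Ctss at 356.8 FPKM, and a link of the letters to these levels was not tested. These matches are descriptions of the reference sequence, and no binding was measured.

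The files list 13 other cathepsin genes. Of these, 9 were at 0 in both libraries, 8 of them from the placental cluster of chromosome 13 and the other Ctsg of neutrophil granules. Only Ctso, Ctse and Ctsf reached 1 FPKM, and none differed more than 2-fold. Ctso, a lysosomal cysteine protease, had 36.56 FPKM in spleen and 33.2 in lung. Ctse, an aspartic protease of endosomes, was at 16.45 and 16.09, and Ctsf, another lysosomal cysteine protease, at 3.33 and 3.702, a ratio that was below 1 with TPM and with equal upper quartiles.

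**Figure D4:**
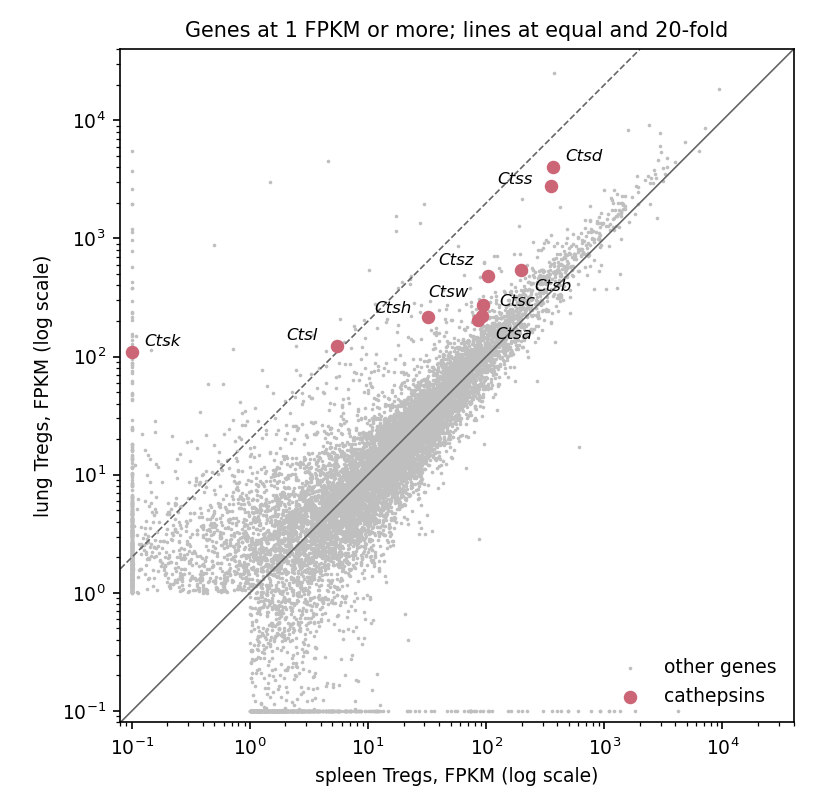
FPKM of the splenic (x axis) and lung (y axis) library for the 12094 symbols that reached 1 FPKM in either library, both axes logarithmic and values under 0.1 drawn at 0.1. The solid line marks equal levels and the dashed line 20-fold. The 10 cathepsins (red) lie above the solid line, with Ctsk and Ctsl above the dashed line.

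Other genes of the lysosome were described by the same counts, beside 6226 of the 12094 symbols higher in lung and 17.8% more than 2-fold higher. With TPM, 3956 of the 12094 symbols were higher and 13.1% more than 2-fold higher, with a median log2 ratio of -0.40. Of 32 genes listed as lysosomal hydrolases, some of them proteases, 26 were higher in lung, 11 by more than 2-fold. More than 2-fold lower were 3, and the median log2 ratio was 0.64. With TPM, 19 were higher and the median was 0.21. Gla, alpha-galactosidase, had 1.093 FPKM in spleen and 17.06 in lung, and Lgmn, the asparaginyl endopeptidase that processes cathepsin precursors, at 37.69 and 160.2. Naglu, an enzyme of heparan sulfate breakdown, was at 13.26 and 5.055, and Gaa, which degrades glycogen, at 9.57 and 3.903. No hydrolase reached 20-fold.

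Of 12 genes of the lysosomal membrane, 4 were more than 2-fold higher and none more than 2-fold lower, with a median log2 ratio of 0.69. The tetraspanin gene Cd63 had 10.19 FPKM in spleen and 538.6 in lung, 52.8-fold higher, and Cd68, a glycoprotein of macrophage lysosomes, at 42.98 and 368.2. Lowest in ratio were Tmem192, at 69.38 and 59.42, and Laptm5, at 818.5 and 935.8, which was lower in lung with TPM.

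All 16 genes of the V-ATPase, the proton pump that acidifies lysosomes, were higher in lung. With TPM, 14 were, beside 3956 of the 12094 symbols. More than 2-fold higher were 3 of them, or 18.8%, close to the 17.8% of all symbols. The median log2 ratio was 0.73. Atp6v0d2, a subunit of osteoclasts and macrophages, had 4.413 FPKM in spleen and 112.2 in lung, 25.4-fold higher, and Atp6v0b followed at 93.78 and 207.5. Atp6v0d1, the subunit found in most cells, was at 24.24 and 27.98, and Atp6v0a1 at 5.136 and 6.9. With TPM, Atp6v0b and all others but Atp6v0d2 were within 2-fold.

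Of 7 genes that sort hydrolases to lysosomes, 3 were more than 2-fold higher and 1 more than 2-fold lower. Sort1, a sorting receptor, had 0.801 FPKM in spleen and 5.208 in lung, and Grn, the lysosomal protein progranulin, at 45.26 and 161.1. The large mannose 6-phosphate receptor Igf2r was lower in lung, at 17.7 and 6.498, as was Gnptab, which makes the mannose 6-phosphate tag, at 6.024 and 3.588. The other 5 genes were higher, among them M6pr, the other mannose 6-phosphate receptor, at 165.7 and 233.7, and Gnptg at 58.26 and 118.8. Among the 4 transcription factors of lysosomal genes, Tfec was at 0.5526 and 5.3 FPKM and Mitf at 0.2678 and 1.252, with about 9.04 and 5.37 reads in spleen. Tfeb and Tfe3 were within 2-fold, at 12.63 and 13.74 and at 12.25 and 11.49.

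Inhibitors of the cysteine cathepsins differed widely. Of 10 genes, 6 reached 1 FPKM, of which 4 were more than 2-fold higher and 1 more than 2-fold lower. Ctla2a and Ctla2b, propeptide-like inhibitors first found in activated T cells, were 22.2-fold and 22.4-fold higher, at 19.22 and 425.8 FPKM and at 7.699 and 172.3. The sequences of this pair are similar and reads may be divided between them. Cstb, an inhibitor of the cytosol, was 5.74-fold and the secreted inhibitor Cst3 2.76-fold higher. Cst7, cystatin F, which holds cathepsin C in check in granules, was at 156.6 and 147.2. Stfa2l1 was at 2.811 FPKM in spleen, on about 6.15 reads, and listed at 0 in lung.

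Of 7 genes of MHC class II and its invariant chain, the pathway in which cathepsin S acts, 4 were more than 2-fold higher and 1 more than 2-fold lower, and 2 were more than 2-fold higher with TPM. H2-DMb1, which helps peptide loading, had 19.1 FPKM in spleen and 73.52 in lung, and the class II chain gene H2-Aa at 293.9 and 802.9. H2-DMa was at 74.18 and 88.36, a ratio that was below 1 with TPM. Ciita, the transactivator of this pathway, was lower in lung, at 3.956 and 0.8957.

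Macrophage genes were higher in the lung library along with the cathepsins. All 12 of a list of macrophage markers were higher, 9 by more than 2-fold and 3 by more than 20-fold, and 10 of 12 were higher with TPM. They ranged from 1.134 to 376.2 FPKM in spleen and from 5.103 to 24947 in lung, and none was at 0. Their sum was 749.8 FPKM in spleen and 27456 in lung, most of it from Lyz2, the lysozyme gene, at 376.2 and 24947. Without Lyz2 and Chil3, a chitinase-like gene of alveolar macrophages at 17.39 and 1161, a pair left out after their values were seen, the other 10 markers summed to 356.2 and 1347. Lyz2 was 66.3-fold higher, above 9 members and below Ctsk. Csf1r, the growth factor receptor of macrophages, was at 43.85 and 50.14 and was lower in lung with TPM. The part of macrophage RNA in the cathepsin ratios was not tested.

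Markers of other cells that could carry Ctsk, Ctss or Ctsh were uneven. Of 6 osteoclast genes, 3 reached 1 FPKM, with Atp6v0d2 as above, Dcstamp at 0 in spleen and 14.44 FPKM in lung, and Acp5 at 159.9 and 201.5, lower in lung with TPM. Their sum was 164.8 and 328.3, and the defining genes Oscar and Calcr were at 0 in both and at 0 and 0.1041. Of 8 fibroblast genes, 5 were more than 20-fold higher in lung, the sum being 0.2896 FPKM in spleen and 163.4 in lung, with 5 at 0 in spleen. Mgp was at 0 and 116.3, Dcn at 0.1216 and 22.23, and Pdgfrb at 0 in both. Of 6 alveolar type 2 genes, 4 were at 0 in spleen and 4 more than 2-fold higher in lung, the sum being 21.9 and 143.8. Sftpc was at 0 and 94.83, Napsa, most of the splenic sum, at 21.86 and 35.83, and Lamp3 at 0 and 0.0271. Dendritic cell genes summed to 13.29 FPKM in spleen and 55.22 in lung, 3 of 7 being more than 2-fold higher, with Itgax at 1.365 and 24.13. Flt3, a defining receptor of dendritic cells, was more than 2-fold lower, at 1.427 and 0.1725, Siglech was at 2.776 and 1.708, and Clec9a was at 0 in lung. Neutrophil genes summed to 425.6 and 1208, with 4 of the 6 listed more than 2-fold higher and none at 0, and S100a8 at 275.7 and 804.3. Genes of B cells, which also make class II, went the other way, from a sum of 245.2 to 125.9, with Cd79b at 90.43 and 59.73. The part of any of these cells in the ratios was not tested.

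**Figure D5:**
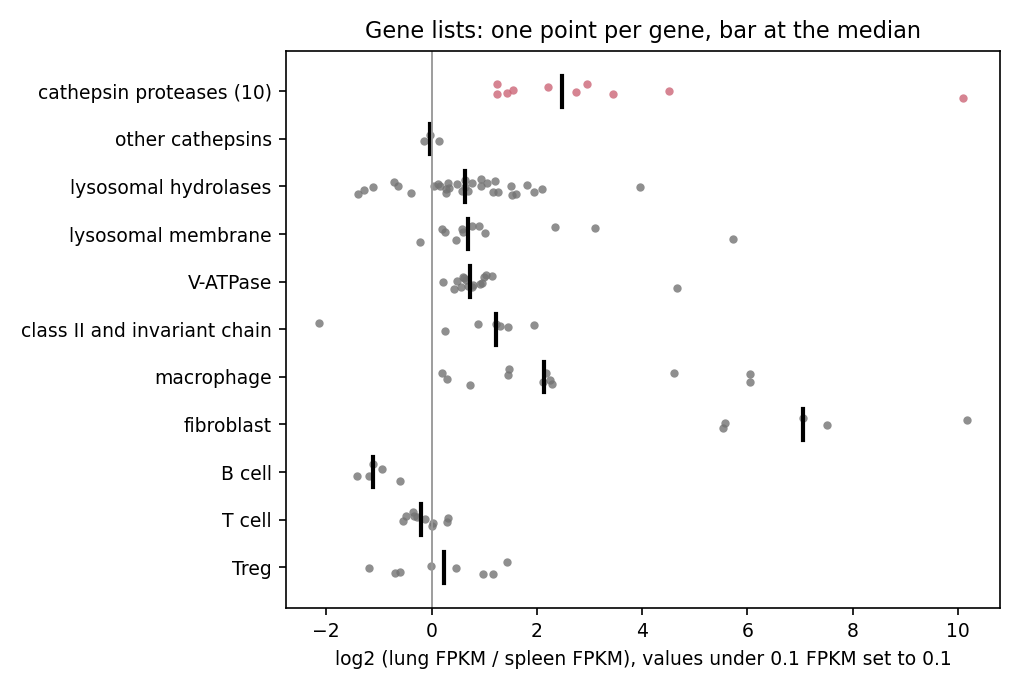
The log2 ratio of lung to splenic FPKM for each gene of the lists that reached 1 FPKM in either library, 1 point per gene with a bar at the median. The cathepsins (red) run from 1.24 to 10.10 around a median of 2.48, the lysosomal hydrolases, membrane genes and V-ATPase genes have medians of 0.64, 0.69 and 0.73, and the T cell genes have a median of -0.20.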

How the data were processed

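Bulk RNA-seq libraries were prepared with the SMART-Seq HT and Nextera XT kits and read as 75-base single ends. Per the labels, mapping to mm10 used TopHat2 2.1.1, Bowtie2 2.2.8 and SAMtools 0.1.18. The authors obtained the deposited FPKM from Cuffdiff 2.2.1. The annotation, the options and any scaling between libraries are not given in the sources used here. No counts were used. The FPKM summed to 599633 in spleen and 808853 in lung.

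Reads were estimated from FPKM and the effective length of GENCODE M21 transcripts tied to RefSeq. At an effective length of 1 kb, 1 read was worth 0.0964 FPKM in spleen and 0.0849 in lung. Of 1391 and 864 low genes, 74.6% and 76.9% lay within 0.1 of a whole number of reads. The step was tested on simulated data made with the same effective lengths. That test could not show whether these lengths fit the deposited values. Intervals of ratios are exact binomial (Clopper-Pearson) and those of levels exact Poisson.

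The members and lists were chosen with earlier results of these data known. All members were named, with the 2 highest and 2 lowest ratios of each pathway list and any gene at 0 in one library and at least 1 FPKM in the other. From marker lists the genes of highest level in each tissue and of the 2 highest ratios were eligible. Cd3e, Il2ra, Lrrc32, Flt3, Siglech, Cstb, Cst3, Csf1r, Oscar, Calcr, Pdgfrb, Ncr1, Clec9a, Lamp3, M6pr, Gnptg and the genes that overlap a member were added after their values were seen. Floors, pseudocounts, scalings and fold thresholds were varied, and a minimum of 3 reads was added after seeing the data. Protein sequences were not analysed here. The software was Python 3.11.15 with scipy 1.17.1, pandas 2.3.3, numpy 2.4.6 and, for plots, matplotlib 3.10.9.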

Additional observations from a re-analysis of the deposited data

How the results depend on the processing

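With 1 library per tissue, no difference has an estimate of the variation between mice, and the counting error is widest for Ctsk and Ctsl, which had about 0 and 99 reads in spleen. Over 8 other settings, 0 of 80 member ratios changed direction, 61 stayed within the counting interval and 19 left it, and the lowest was 1.75. No change of direction was possible, so its absence is not a test. Floors, pseudocounts and the read minimum keep the higher library higher. The scalings lower log2 ratios by 0.43 at most, and the lowest of the members was 1.237. The count of members more than 2-fold higher was 10, and 6 were past 4-fold. Of the 2 members past 20-fold, 1 was left with a pseudocount of 1 FPKM, with TPM or among members with at least 1 FPKM in both libraries. A threshold of 10-fold gave 3. The median log2 ratio was 2.48, and 2.05 with TPM, 2.31 with equal upper quartiles and 2.22 over members with at least 1 FPKM in both libraries. TPM and equal upper quartiles shift log2 ratios by -0.43 and -0.18, and the filter takes out Ctsk. The exception is Ctsk with TPM, where the floor was applied after rescaling and the ratio was 1354. The ratio of Ctsk rests on the floor, with 1096 at 0.1 FPKM, 110 at 1 FPKM and 493 with 3 reads, a setting chosen after seeing the data. No paired analysis was possible because each tissue has 1 library.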
